A study of Mus musculus with 18 samples.

Results

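The transcript levels of 6 genes were followed across 4 genotypes of mouse embryonic cortex. They were the nuclear factor I genes Nfia, Nfib, Nfic and Nfix, the zinc finger gene Zbtb20 and the homeobox gene Prox1. These were taken by name, from a list of genes of hippocampal and medial pallial development, out of the 38355 genes counted in each library. All 6 passed the filter on low counts. The libraries came from dissected cortical tissue of C57BL/6 embryos at stage E12.5. They comprised 4 wild-type (WT) libraries, 5 of Dmrt3-/- embryos (Dmrt3 KO), 4 of Dmrt5-/- embryos (Dmrt5 KO) and 5 of Dmrt3-/-;Dmrt5-/- embryos (double KO). Dmrt3 and Dmrt5, whose current symbol is Dmrta2, encode transcription factors with a DM DNA-binding domain that pattern the medial cortex. No Cre, transgene or treatment is named in the labels. Nothing in them says that the libraries are of separate embryos or litters. The p-values therefore describe the spread among these libraries, which may be technical.

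Nuclear factor I proteins bind DNA as dimers, and in the developing forebrain Nfia, Nfib and Nfix are known for moving radial glia from self-renewal towards neuronal and glial differentiation, with marked hippocampal defects when they are lost. Zbtb20 is a transcriptional repressor known for specifying the hippocampal CA1 field against the neighbouring cortex. Prox1 is known for maintaining dentate granule cell identity in the hippocampus, and is also expressed in the caudal ganglionic eminence, the thalamus and lymphatic endothelium.

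Levels are given as normalised counts (CPM), made from the deposited counts and scaled library sizes. The libraries held 19602718 to 33072896 counts. The cortical neuron gene Tbr1 was present in each genotype, with 242 ± 54.4 CPM in WT and 234 ± 26.3, 217 ± 19.8 and 127 ± 40 CPM in Dmrt3 KO, Dmrt5 KO and double KO tissue (SD, n = 4, 5, 4 and 5). In the same order of genotypes, Dmrt3 transcript averaged 56.9, 0.308, 41.5 and 0.157 CPM and Dmrta2 averaged 194, 219, 10.7 and 3.55 CPM, and Dmrt5 KO replicate 1 held 25.1 CPM of it. In bulk tissue, fewer cells of a type and less RNA per cell cannot be told apart. WT replicate 2 was the lowest WT library for all 6 genes, and results that change without it are given with that value. Of all libraries it held the fewest counts, 19602718, and the highest sum of erythroid markers, 11012 CPM. It also had the lowest slope of level on gene length, -0.196. Their part in its values was not tested.

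All 6 loci were placed on mm10. Nfia (ENSMUSG00000028565) lies on the plus strand of chromosome 4, from 97772734 to 98118874. Nfib (ENSMUSG00000008575) lies on the minus strand of the same chromosome, from 82290173 to 82705750. These are 11.86 Mb and 27.27 Mb from the targeted gene Dmrta2 on that chromosome. Nfix (ENSMUSG00000001911) lies on chromosome 8 from 84699876 to 84800344, minus strand, and Nfic (ENSMUSG00000055053) on chromosome 10 from 81396186 to 81455635, minus strand. Zbtb20 (ENSMUSG00000022708) spans 766.7 kb of chromosome 16, from 42875881 to 43642602 on the plus strand. Prox1 (ENSMUSG00000010175) lies on chromosome 1 from 190118035 to 190170714, minus strand.

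Levels between genes were compared per kilobase of exonic length. In WT, Nfix was the most abundant at 29.9 CPM per kb, followed by Nfib at 19.9, Nfia at 15.8 and Nfic at 6.27, with Prox1 at 2.41 and Zbtb20 at 1.64. In the double KO, Nfix stood at 7.5, Nfia at 7, Nfib at 6.83, Prox1 at 5.03, Nfic at 4.18 and Zbtb20 at 2.63 CPM per kb. Prox1 thus had a higher mean than Nfic there, in 4 of 5 libraries and not in replicate 4, a reversal of the WT order. Summed over the 4 nuclear factor I genes, the WT level was 71.9 ± 25.6 CPM per kb (SD, n = 4). It was 57.8 ± 5.74 CPM per kb with Dmrt3 lost (n = 5), 31.1 ± 3.66 with Dmrt5 lost (n = 4) and 25.5 ± 4.2 with both lost (n = 5). The lowest WT library had a sum of 39.8, above the highest Dmrt5 KO library at 35.4 and the highest double KO library at 32.5.

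**Figure D1:**
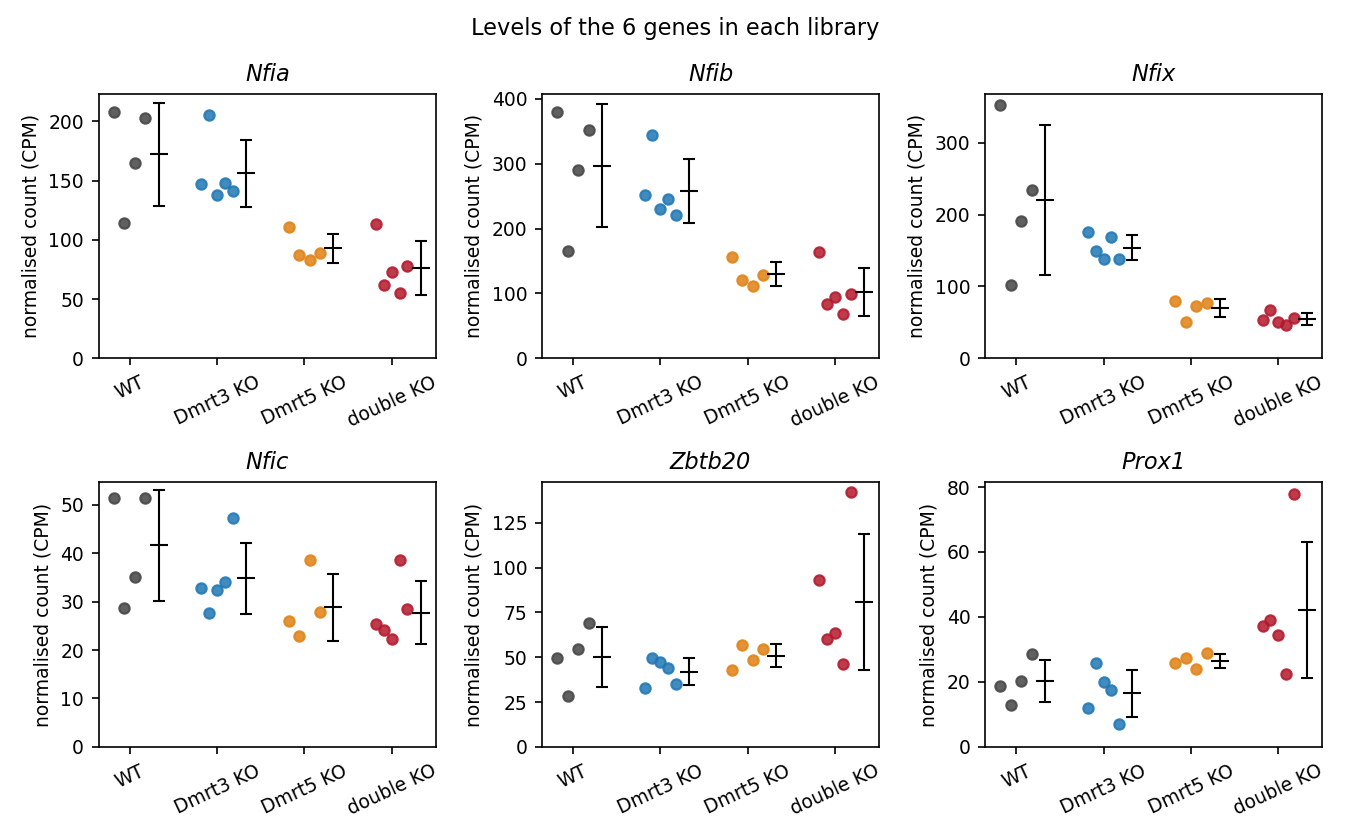
Normalised counts (CPM, linear axis from 0) of each gene in every library, in 6 panels by genotype. Points are libraries and the bar beside them is the mean with its SD (n = 4 for WT and Dmrt5 KO, 5 for Dmrt3 KO and the double KO). Every Dmrt5 KO and double KO library lies below every WT library for Nfia, Nfib and Nfix, while the double KO libraries of Zbtb20 and Prox1 spread widely and overlap WT.

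Nfix had the lowest fitted log2 difference from WT of the 6. Its 4 WT libraries held 353, 102, 191 and 234 CPM, and the 5 Dmrt3 KO libraries 176, 150, 138, 169 and 138 CPM. The Dmrt5 KO libraries held 80, 51.2, 72.7 and 77 CPM, and the double KO libraries 53.6, 68, 50.4, 46.8 and 56.7 CPM. All Dmrt5 KO and double KO libraries were below the lowest WT library, and the WT libraries themselves were widely spread. Under edgeR's quasi-likelihood test with Benjamini-Hochberg adjustment over 16236 genes, Nfix fell 3.13-fold in Dmrt5 KO against WT (log2 fold change -1.65, SE 0.26, adjusted p 0.00448). In the double KO it fell 3.99-fold (log2 -2.0, SE 0.24, adjusted p 6.7e-05). In Dmrt3 KO the difference was not called (log2 -0.51, SE 0.24, p 0.0462, adjusted p 0.65).

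Nfix had the most annotated promoter windows of the 6 genes, and all matches to the searched recognition motifs lay in its windows. Stretches of these windows are shown here. RefSeq (GRCm38.p6) windows of 250 bases before to 50 bases after a transcript start were found for 5 of the 6 genes, 9 windows in all, and none for Nfib. Nfix had 4 of the windows, Prox1 had 2, and Nfia, Nfic and Zbtb20 had 1 each. Positions are counted from +1 at the transcript start, without a 0. The 60 bases below lie at -67 to -8 of one Nfix start, at chr8:84780090-84780149 on the minus strand. Capitals mark TAATTA, the palindromic core bound by many homeodomain proteins.
Nfix upstream start: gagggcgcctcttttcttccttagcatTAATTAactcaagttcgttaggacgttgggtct
The 30 bases below lie at -14 to +16 of another Nfix start, at chr8:84772860-84772889 on the minus strand. Capitals mark the nuclear factor I recognition core TTGGC, present here on each strand with GCCAA at -5 and TTGGC at +4.
Nfix downstream start: ctgggggcaGCCAAacaTTGGCcagtccgg
On either strand, TTGGC was found in 3 of the 9 windows, all of Nfix, and in 46.7% of all 32851 promoter windows. TAATTA was found in 1 of the 9 and in 5.29% of all windows. The full palindrome (TTGGC, 5 bases of any kind, GCCAA), in 0.0365% of all windows, and a DM-domain core, ACAATGT with its reverse complement ACATTGT, in 2.96%, were found in none of the 9. The full palindrome contains the TTGGC core, so these searches overlap. A match is a description of the letters and no test of binding.

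Nfib, which drives the same differentiation steps as Nfia, followed the same order of genotypes. The WT libraries held 379, 166, 290 and 352 CPM, and the Dmrt3 KO libraries 251, 344, 230, 246 and 221 CPM. The Dmrt5 KO libraries held 156, 121, 112 and 129 CPM, and those of the double KO 164, 84.2, 94.7, 67.7 and 99.8 CPM. Double KO replicate 1, at 164, came close to the lowest WT library, at 166, without overlap. In edgeR's quasi-likelihood test with Benjamini-Hochberg adjustment, Nfib fell 2.29-fold in Dmrt5 KO (log2 -1.20, SE 0.26, adjusted p 0.0326) and 2.91-fold in the double KO (log2 -1.54, SE 0.24, adjusted p 0.000726). The call in Dmrt5 KO held without WT replicate 2 (adjusted p 0.00464), and was lost when any one of the other 7 libraries compared was left out (adjusted p 0.0615 to 0.127). With only the WT and Dmrt5 KO libraries in the fit, neither Nfib nor Nfix was called in Dmrt5 KO (adjusted p 0.0771 for each).

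Nfia, an early inducer of the gliogenic programme, stood at 208, 114, 165 and 203 CPM in WT and at 147, 205, 138, 148 and 141 CPM in Dmrt3 KO. It stood at 111, 86.8, 83.4 and 89.3 CPM in Dmrt5 KO and at 113, 61.5, 73.1, 55 and 78.1 CPM in the double KO. No Dmrt5 KO or double KO library reached a WT library, although WT replicate 2 was only just above the highest of each. Nfia fell 2.26-fold in the double KO (log2 -1.18, SE 0.20, adjusted p 0.00164). In Dmrt5 KO its log2 difference of -0.89 (SE 0.22) had an adjusted p of 0.0592 and was not called. With edgeR that value became 0.0136 without WT replicate 2, and 0.0816 to 0.198 when any other library compared was left out. It was 0.0982 with only the WT and Dmrt5 KO libraries in the fit. Nfia passed with the slope of level on gene length as covariate (adjusted p 0.0389) and with DESeq2 (0.0106).

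Nfic, the family member with the lowest level, held 51.3, 28.7, 35 and 51.3 CPM in WT and 32.9, 27.6, 32.3, 34.1 and 47.3 CPM in Dmrt3 KO. Dmrt5 KO libraries held 26, 22.8, 38.6 and 27.9 CPM and double KO libraries 25.4, 24.1, 22.2, 38.5 and 28.5 CPM. The genotypes overlapped throughout. No comparison called Nfic, with log2 differences from WT of -0.26 (Dmrt3 KO, adjusted p 0.669), -0.53 (Dmrt5 KO, 0.373) and -0.58 (double KO, 0.132). Without double KO replicate 4 the double KO difference was -0.73 and passed (adjusted p 0.03). Genes of mesenchyme, the connective tissue around the brain, varied beside it: their summed level was 3198 CPM in Dmrt3 KO replicate 5, 2076 in Dmrt5 KO replicate 4 and 2581 in double KO replicate 4, the highest of each genotype. The same 3 libraries had the highest Nfic of their genotypes. In WT, replicate 4 had the highest mesenchyme sum, at 3085 CPM. Its Nfic was 51.3 CPM, the same as in replicate 1, where the sum was 1543 CPM. With a mesenchyme score as a covariate in edgeR, the double KO difference of Nfic from WT was -0.27 (adjusted p 0.886). With the slope of level on gene length as covariate it was -0.62 and passed (adjusted p 0.0238). Mesenchyme was not alone in this. Within genotypes, Pearson r of Nfic was 0.58 with the mesenchyme score and 0.58 with the length slope. With scores of other markers it was 0.71 for endothelium, 0.62 for cortical hem, -0.68 for subpallium and -0.77 for neural progenitors. The part of each in the Nfic values was not tested beyond the covariate fits given.

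Zbtb20 held 49.4, 28.6, 54.4 and 68.8 CPM in WT, 33, 49.8, 47.3, 44.2 and 35.1 CPM in Dmrt3 KO, and 42.9, 56.8, 48.7 and 54.8 CPM in Dmrt5 KO. The double KO libraries held 92.9, 60, 63.3, 46 and 142 CPM. Replicates 1 and 5 of the double KO exceeded every other library of the study, and replicates 2, 3 and 4 lay within the WT range. Zbtb20 was not called by edgeR in any comparison. Its log2 difference from WT was -0.27 with Dmrt3 lost (adjusted p 0.696), 0.01 with Dmrt5 lost (0.991) and 0.68 with both lost (0.203), and that of the double KO from Dmrt3 KO was 0.95 (SE 0.27, adjusted p 0.0577). DESeq2 called the last of these (log2 0.96, adjusted p 0.0142), and without double KO replicate 4 it was 1.10 and passed (adjusted p 0.0124). It was lower under other alternatives, at 0.65 without double KO replicate 5, 0.62 with the slope of level on gene length as covariate and 0.49 with a mesenchyme score (adjusted p 0.191, 0.107 and 0.779). The double KO difference from WT was 0.38 without double KO replicate 5, 0.58 with the length slope and 0.16 with the mesenchyme score (adjusted p 0.399, 0.0609 and 1).

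Prox1 held 18.9, 13, 20.3 and 28.7 CPM in WT, 12.1, 25.9, 20, 17.6 and 7.16 CPM in Dmrt3 KO, and 25.8, 27.3, 24 and 28.8 CPM in Dmrt5 KO. The double KO libraries held 37.2, 39.2, 34.3, 22.3 and 78 CPM. As for Zbtb20, replicate 5 was the highest of the double KO and replicate 4 the lowest, inside the ranges of WT and Dmrt3 KO. Prox1 rose 2.55-fold in the double KO against Dmrt3 KO (log2 1.35, SE 0.33, adjusted p 0.026 by edgeR's quasi-likelihood test with Benjamini-Hochberg adjustment). Against WT the log2 difference of 1.06 (SE 0.35) was not called in the double KO (adjusted p 0.0905), nor was 0.38 in Dmrt5 KO (0.742) or -0.29 in Dmrt3 KO (0.717). The call against Dmrt3 KO was lost without double KO replicate 5 (log2 1.01, adjusted p 0.0815) and without Dmrt3 KO replicate 1, 4 or 5 (adjusted p 0.087, 0.0545 and 0.0554). It was also lost with a mesenchyme score as covariate (log2 0.71, adjusted p 0.396). The difference from WT was 0.27 with that score (adjusted p 0.976) and 0.71 without double KO replicate 5 (adjusted p 0.201), while without double KO replicate 4 it was 1.22 and passed (adjusted p 0.026).

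Markers of other cell types that carry Prox1 moved with genotype in part. Markers of the caudal ganglionic eminence without Prox1, 5 genes, summed to 360 to 462 CPM in WT and 482 to 809 in the double KO. Nr2f2 and Pax6 made up most of this sum, and Pax6 is also listed as a neural progenitor marker. In WT, Dmrt3 KO and the double KO, Nr2f2 averaged 169, 196 and 154 CPM and Pax6 176, 207 and 319 CPM. Sp8 averaged 51.7, 39.1 and 87.9 CPM. Against WT, Sp8, Scgn and Pax6 were called higher in the double KO and Htr3a lower. In Dmrt3 KO, against which Prox1 was called, these markers summed to 333 to 532 CPM, which overlapped the double KO. Of the lymphatic endothelial markers without Prox1, the 4 genes summed to 58.8 to 111 CPM in WT. They summed to 77.4 to 102 CPM in Dmrt3 KO and 68.1 to 129 in the double KO. Ccl21a was at 0 in WT and the double KO. Lyve1, a defining marker, averaged 4.18 ± 1.54 CPM in WT, 5.78 ± 1.61 in Dmrt3 KO and 1.18 ± 1.22 in the double KO. Flt4 averaged 14, 11.3 and 9.02 CPM in the same order. Pdpn, most of the sum, went the other way, at 62.9 ± 24, 73.7 ± 12.3 and 97.2 ± 22.1 CPM. Lyve1, Flt4 and Pdpn were not called in the double KO against WT. Diencephalic markers summed to 124 to 169 CPM in WT, 137 to 242 in Dmrt3 KO and 170 to 258 in the double KO. In the double KO, 1 of 9 tested, Gbx2, was called higher against WT, and none was called against Dmrt3 KO. Markers of postmitotic neurons summed to 3861 to 4835 CPM in WT, 3972 to 6825 in Dmrt3 KO and 4903 to 7142 in Dmrt5 KO. They summed to 3627 to 8649 CPM in the double KO, where replicate 4 was the lowest. Mesenchyme markers ran from 272 CPM in double KO replicate 5 to 2581 in replicate 4, beside 1100 to 3085 in WT and 787 to 3198 in Dmrt3 KO. Double KO replicate 5 also had the strongest dependence of level on gene length, a slope of 0.326 against -0.196 to 0.243 in the other 17 libraries, and Zbtb20 has the longest exonic sequence of the 6 genes (30.73 kb). The part of each of these in the Zbtb20 and Prox1 values was not tested beyond the alternatives given.

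**Figure D2:**
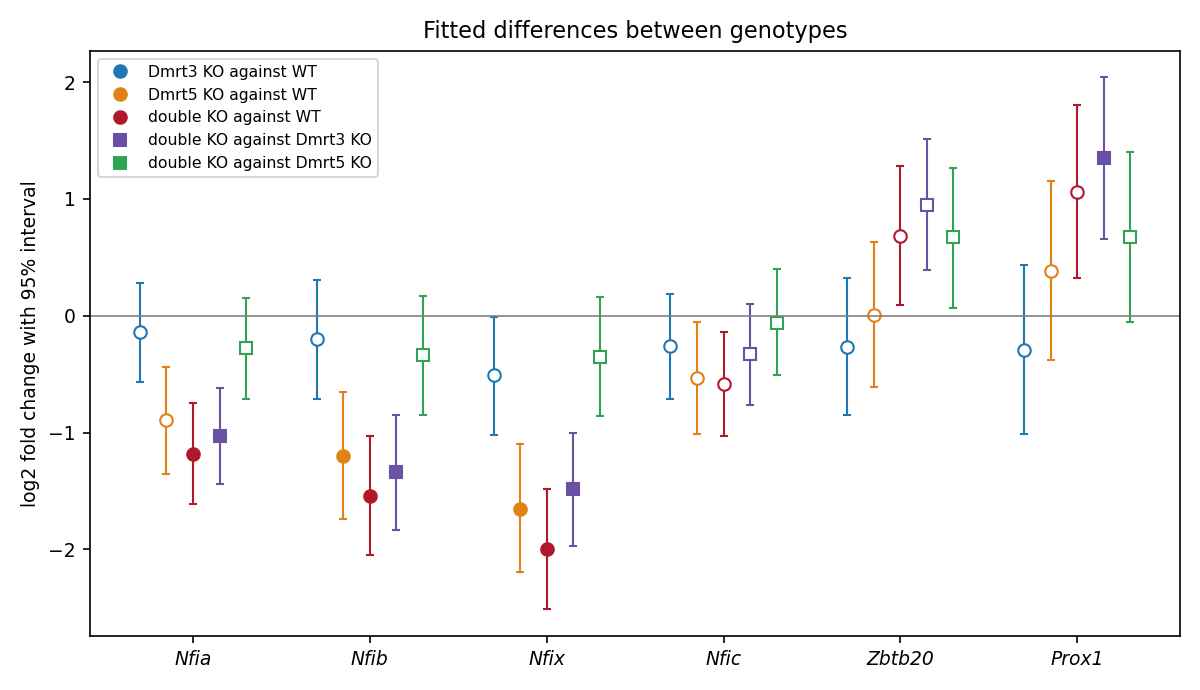
Fitted log2 fold change of each gene (y axis) in 5 comparisons, with 95% intervals from edgeR's quasi-likelihood fit; filled symbols were called at an adjusted p under 0.05. Nfia, Nfib and Nfix were called lower in the double KO against WT and against Dmrt3 KO, Prox1 was called higher only against Dmrt3 KO among these comparisons, and no gene was called in the double KO against Dmrt5 KO.

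The comparisons against WT ask what each factor does alone and together. In Dmrt3 KO, 0 of the 6 genes were called, where 0.0123% of all tested genes were. By edgeR 1 of the 6, Nfix, had an unadjusted p under 0.05, as had 7.16% of all tested genes, and DESeq2 also called 0 of the 6. In Dmrt5 KO, 2 of 6 (Nfib and Nfix) were called lower, where 0.69% of tested genes were, and 3 of 6 (Nfia added) lay below every WT library, as did 4.34% of tested genes. In the double KO, Nfia, Nfib and Nfix were called lower, 3 of 6 against 3.81% of tested genes, and the same 3 did not overlap WT, against 3.4%. The median log2 difference over the 6 genes was -0.71 for Dmrt5 KO and -0.88 for the double KO, beside medians over all tested genes of -0.02 and 0.01. The 6 genes were chosen with earlier results of these data known. The shares set beside them, here and in the other comparisons, are therefore a description only.

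The double KO against each single KO asks what removing the other factor adds. Against Dmrt3 KO, where the added loss was Dmrt5, Nfia fell 2.05-fold (adjusted p 0.0041), Nfib 2.53-fold (0.00214) and Nfix 2.8-fold (0.000829). These 3 of 6 stood against 1.96% of tested genes called lower, and the rise of Prox1, 1 of 6, against 1.74% called higher. Nfia, Nfib and Nfix also lay below Dmrt3 KO in every library, as did 2.51% of tested genes. Against Dmrt5 KO, where the added loss was Dmrt3, 0 of 6 were called, where 0.333% of tested genes were. By edgeR 1 of the 6, Zbtb20, had an unadjusted p under 0.05 (p 0.0298), as had 4.71% of tested genes, and DESeq2 called 0 of 6. The 95% intervals of the log2 difference were -0.71 to 0.15 for Nfia, -0.85 to 0.17 for Nfib and -0.86 to 0.16 for Nfix. They ran from 0.07 to 1.26 for Zbtb20 and from -0.05 to 1.4 for Prox1. These 2 comparisons and those against WT share libraries, so they are not independent of each other.

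The interaction, the double KO minus both single KO effects on the log2 scale, was not called for any of the 6 genes, where 0.142% of tested genes were. It was -0.14 for Nfia (95% interval -0.75 to 0.47), -0.14 for Nfib (-0.87 to 0.58), 0.16 for Nfix (-0.55 to 0.88) and 0.20 for Nfic (-0.44 to 0.84). For Zbtb20 it was 0.94 (0.10 to 1.77, p 0.0302, adjusted p 0.529) and for Prox1 0.97 (-0.06 to 1.99, adjusted p 0.54). With the length slope as covariate these were 0.43 for Zbtb20 and 0.44 for Prox1, and with the mesenchyme score 0.64 and 0.58. Leaving out double KO replicate 5 gave 0.63 for Zbtb20 and 0.62 for Prox1. Zbtb20 alone of the 6 had an unadjusted p under 0.05, as had 9.22% of tested genes, and DESeq2 called 0 of the 6.

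The single KO genotypes were also compared with each other, a comparison added after the levels had been seen. Dmrt5 KO lay below Dmrt3 KO in every library for Nfia, Nfib and Nfix, 3 of 6 genes, as did 1.92% of tested genes. None of the 6 passed in edgeR's quasi-likelihood test, where 0.228% of tested genes did. The log2 differences were -1.13 for Nfix (SE 0.25, adjusted p 0.0806), -1.0 for Nfib (SE 0.25, 0.155) and -0.75 for Nfia (SE 0.21, 0.226), each with an unadjusted p under 0.05, as had 4.64% of tested genes. DESeq2 called Nfix and Nfib (adjusted p 0.00358 and 0.023), and a fit to these genotypes only called all 3. The order of mean levels for Nfia, Nfib, Nfix and Nfic was WT, Dmrt3 KO, Dmrt5 KO and double KO from high to low. Within that order, WT and Dmrt3 KO overlapped, as did Dmrt5 KO and the double KO. For Zbtb20 and Prox1 the double KO had the highest mean and Dmrt3 KO the lowest, with overlap between all neighbours.

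Shares within the nuclear factor I family were compared next. Nfix made up 40.3 ± 5.45% of the family's summed level per kilobase in WT and 29.9 ± 5.62% in the double KO (SD, n = 4 and 5). The share of Nfic was 9.02 ± 1.44% in WT and 16.9 ± 5.75% in the double KO. Double KO replicate 4 held the highest Nfic of its genotype, at 5.81 CPM per kb. The ratio of Nfib to Nfia CPM ran from 1.46 to 1.83 in WT and 1.57 to 1.70 in Dmrt3 KO. It ran from 1.34 to 1.45 in Dmrt5 KO and 1.23 to 1.45 in the double KO, with no overlap between the genotypes with and without Dmrt5. In 8 exact two-sided permutation tests of log2 ratios, chosen after the levels had been seen, the ratio of Nfix to Nfic was lower by 1.31 in the double KO than in WT (exact p 0.0159, adjusted over the 8 tests 0.0508). It was lower by 1.02 in Dmrt5 KO (exact permutation p 0.0286, adjusted 0.0508). The ratio of Nfib to Nfic was lower by 0.97 in the double KO and 0.63 in Dmrt5 KO (exact permutation p 0.0317 and 0.0571, adjusted 0.0508 and 0.0726). That of Nfia to Nfic was lower by 0.62 and 0.35 (exact permutation p 0.0635 and 0.2, adjusted 0.0726 and 0.2). The log2 ratio of Nfia to Nfib was higher by 0.35 in the double KO and by 0.28 in Dmrt5 KO (exact permutation p 0.0159 and 0.0286, adjusted 0.0508 each). None of the 8 tests passed after adjustment, and 0.0159 and 0.0286 are the smallest p-values that 5 against 4 and 4 against 4 libraries can give.

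**Figure D3:**
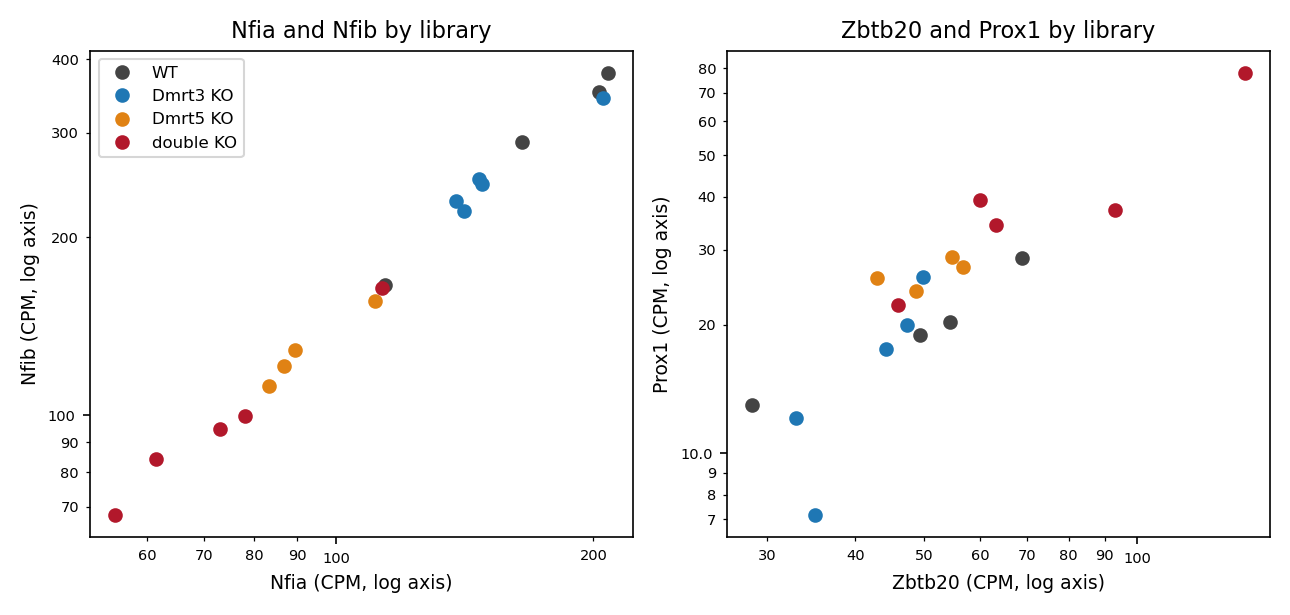
Levels of Nfib against Nfia and of Prox1 against Zbtb20 in the 18 libraries (CPM, both axes logarithmic), coloured by genotype. Nfia and Nfib lie close to 1 line from the double KO at the lower left to WT at the upper right, with a double KO library beside WT replicate 2; for Zbtb20 and Prox1 double KO replicate 5 stands at the upper right, at 142 and 78 CPM.

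The genes whose pattern was most like each member were sought by Pearson r of log2 CPM over the 18 libraries among 12798 genes, as a description, since the libraries share genotype and depth. For Nfia the closest was Nfib (r 1.0), and for both the next were 9630028B13Rik (r 0.97 with each) and Aldoc, a glycolytic enzyme of radial glia and astrocytes (r 0.95 with Nfia, 0.96 with Nfib). Aldoc averaged 69.5 ± 42.8 CPM over the 4 WT libraries and 53 ± 22.2, 14.8 ± 5.03 and 10.7 ± 7.88 CPM in the Dmrt3 KO (n = 5), Dmrt5 KO (n = 4) and double KO libraries (n = 5), and fell in the double KO against WT (log2 -2.71, adjusted p 0.00318). For Nfix the closest were Ubxn10 (r 0.96), Rbm20, an RNA-splicing regulator (0.95), and Slc16a10, an aromatic amino acid transporter (0.94), all called lower in the double KO against WT (log2 -1.35, -3.30 and -1.32). For Nfic they were Fosl2 (0.94), Akap12 (0.94) and Daam2 (0.93), of which none was called. For Zbtb20 they were Synj1, Ppm1e and 4930402H24Rik (0.97 each), and for Prox1 Zswim5 (0.95), Zfp641 (0.94) and the neuregulin receptor gene Erbb4 (0.94). None of these 6 was called in the double KO against WT, and Erbb4 was the nearest, at log2 1.26 (adjusted p 0.0701).

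Transcripts annotated inside or against the members were read because the library kit does not mark strand. Gm11266, antisense within Nfib and sharing 0 exonic bases with it, averaged 16.5 ± 6.02 CPM over the 4 WT libraries. It averaged 12.3 ± 1.7 CPM with Dmrt3 lost (n = 5), 4.39 ± 0.545 with Dmrt5 lost (n = 4) and 2.49 ± 1.07 with both lost (n = 5). It fell in Dmrt5 KO (log2 -1.91, adjusted p 0.00366) and in the double KO (log2 -2.73, adjusted p 7.76e-06). Its reads and those of unspliced Nfib RNA cannot be told apart. BC002163, a processed pseudogene inside Zbtb20, averaged 1.19 ± 1.03 CPM over the 4 WT libraries, 11.6 ± 2.61 with Dmrt5 lost (n = 4) and 7 ± 4.1 with both lost (n = 5). It rose in Dmrt5 KO (log2 3.32, adjusted p 0.00871) and in the double KO (2.60, 0.00738), and reads of a related gene copy could have been counted there. Prox1os, antisense to Prox1 and sharing 133 exonic bases with it (1.59% of Prox1), was not called in the double KO (log2 1.41, adjusted p 0.0915).

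Lists of genes around these regulators, chosen with earlier results of these data known, were then read in the double KO against WT, where 2.42% of tested genes rose and 3.81% fell. Of 20 medial pallium and hippocampal field regulators, 7 fell and 3 rose (median log2 -0.32, against 0.01 over all tested genes). Those that fell included the hem signal Wnt3a (log2 -6.18), the pallial selector Emx1 (-4.17), the Wnt receptor gene Fzd9 (-2.04), Wnt8b (-1.82), Emx2 (-1.62), the cortical selector Lhx2 (-1.56) and the Wnt effector Lef1 (-1.23). The LIM homeobox gene Lhx5 (1.07), the POU domain gene Pou3f1 (0.92) and the ephrin receptor gene Ephb1 (0.53) rose. Lhx2 averaged 755 ± 50.1 CPM over the 4 WT libraries, 601 ± 55.2 with Dmrt3 lost (n = 5), 355 ± 24.9 with Dmrt5 lost (n = 4) and 257 ± 39.1 with both lost (n = 5). In Dmrt5 KO 3 of the 20 fell, Lhx2, Fzd9 and Emx2, and in Dmrt3 KO none of the 20 was called.

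Of 16 tested genes studied as targets or partners of nuclear factor I, 1 fell in the double KO, the Wnt inhibitor Apcdd1, from 81.3 ± 42.1 CPM in WT (n = 4) to 31.9 ± 8.97 (n = 5; log2 -1.35, adjusted p 0.0431). The median log2 difference of the list was -0.18, with 12 genes below 0 and 4 above. The next by p were Mmd2, a glial gene (log2 -1.07, adjusted p 0.0568), Hes1, a Notch effector (-0.49, 0.127), and Insc, which orients progenitor divisions (-0.85, 0.141). In Dmrt5 KO 0 of the 16 were called, beside 1.03% of all tested genes. The astrocyte gene Gfap did not pass the filter on low counts, with a WT mean of 0.235 CPM. Of 12 glial and late radial glial genes tested, 2 rose, the oligodendrocyte lineage genes Olig2 (log2 1.32, adjusted p 0.00626) and Olig1 (0.93, adjusted p 0.0101), which are also expressed in subpallial progenitors. The next were Fabp7, which also stands in the list of nuclear factor I targets or partners (0.88, adjusted p 0.142), and Ptprz1 (0.63, adjusted p 0.306). The median of the glial list was 0.36.

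Of 10 genes studied with Zbtb20, 2 fell and 1 rose in the double KO (median log2 0.03). They comprise projection neuron genes and Afp, a liver gene that Zbtb20 represses, which averaged 1.24 ± 1.37 CPM in WT (n = 4) and was not called (log2 -1.90, adjusted p 0.43). Fezf2, a determinant of subcerebral projection neurons, fell by 2.01 on the log2 scale and Tbr1, a deep-layer regulator, by 0.94, while Foxp2 rose (log2 0.70, adjusted p 0.0497). Rorb was next at 0.68 (adjusted p 0.0867). Of 11 dentate gyrus and Prox1 related genes, 5 fell and none rose (median log2 -1.08): the neuronal differentiation genes Neurod6 (-5.66) and Neurod1 (-2.20), the intermediate progenitor gene Eomes (-2.04), the proneural gene Neurog2 (-2.01) and Lef1 (-1.23), which stands in 2 of the lists. Neurod1 averaged 35.3 ± 5.99 CPM over the 4 WT libraries, 27.4 ± 2.97 with Dmrt5 lost (n = 4) and 7.67 ± 1.46 with both lost (n = 5). In Dmrt5 KO 0 of these 11 genes were called.

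**Figure D4:**
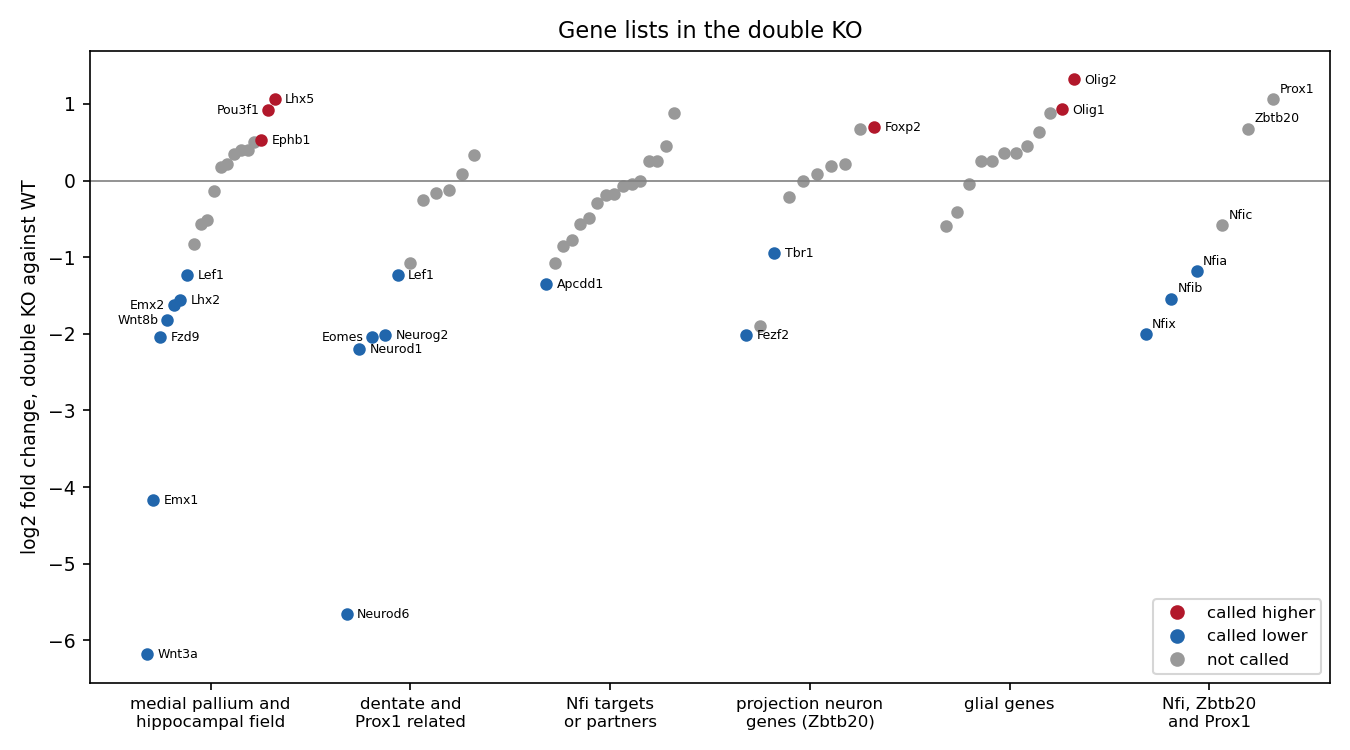
Log2 fold change in the double KO against WT (y axis) of each tested gene in 5 lists and of the 6 members, sorted within each list; blue was called lower, red called higher and grey not called. Wnt3a at -6.18 and Neurod6 at -5.66 are the lowest points, and 1 of the 16 nuclear factor I targets and partners was called.

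Markers of other territories changed in the same comparison. Subpallial markers summed to 825 to 1155 CPM in WT, 1615 to 2017 in Dmrt5 KO and 1748 to 3258 in the double KO, and 11 of 11 rose in the double KO. Cortical hem markers summed to 301 to 462 CPM in WT, 106 to 224 in Dmrt5 KO and 46 to 190 in the double KO, and 7 of 10 fell there. Choroid plexus markers, whose tissue borders the hem, summed to 135 to 306 CPM in WT, 70.8 to 89.8 with Dmrt5 lost and 59.2 to 132 with both lost. With both lost, 4 of 6 fell. The sum was then largely Otx2, also listed as a diencephalic marker, at a mean of 80.3 CPM against 55.4 in WT (log2 0.54, not called). Ttr averaged 152 ± 82.9 CPM in WT, 5.47 ± 3.75 with Dmrt5 lost and 1.29 ± 1.88 with both lost. Kcnj13 averaged 0.352 CPM in WT and 0.0176 with both lost. None of the markers in these 3 lists was at 0 in a whole genotype. Their part in the falls of Nfia, Nfib and Nfix was not tested. With a mesenchyme score as covariate, the double KO falls were -1.32 for Nfia, -1.71 for Nfib and -2.11 for Nfix on the log2 scale. Each was still called by edgeR (adjusted p 0.00844, 0.0052 and 0.00119). Over the 18 libraries, genotype differences included, r of Nfia, Nfib and Nfix with the mesenchyme score was 0.39, 0.40 and 0.46. It was 0.90, 0.92 and 0.92 with the choroid plexus score, 0.69, 0.70 and 0.77 with hem, and -0.73, -0.75 and -0.83 with subpallium. Within genotypes it was 0.49, 0.53 and 0.49 for choroid plexus, -0.49, -0.51 and -0.15 for hem, and 0.45, 0.48 and 0.05 for subpallium. For Nfia and Nfib it was higher within genotypes with postmitotic neurons, at 0.74 and 0.77, against 0.33 for Nfix. Over the 18 libraries r with postmitotic neurons was -0.22, -0.23 and -0.44. With the caudal ganglionic eminence r within genotypes was 0.69, 0.70 and 0.17. The part of these cell types was not tested either.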

How the data were processed

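RNA was purified with an RNeasy kit, per the labels' protocols, and made into libraries with a TruSeq kit (RNA Sample Prep, v2), which does not mark strand. The authors deposited raw read counts for each Ensembl gene, not normalised. The submitters' processing notes list STAR 2.3.0e, featureCounts 1.4.6-p1, DESeq2 1.8.2, FastQC 0.10.1, bcl2fastq, CASAVA 1.8.2 and mm10. The strand setting and annotation release were not given in the sources used here. Symbols, positions and exonic lengths were taken from GENCODE M21 by gene ID (36602 of 38355 matched, with 0.397% of counts in the rest).

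Counts were fitted here with edgeR 4.0.16 (R 4.3.3): after filterByExpr (16236 genes) and TMM scaling, all 18 libraries entered 1 quasi-likelihood fit with a mean for each genotype. Adjustment was by Benjamini-Hochberg over the tested genes, with calls under 0.05. DESeq2 1.42.0, other scalings, no filter, fewer libraries, a replicate block and library covariates (the slope of level on gene length, and a mesenchyme score) were alternatives. The fit was tested on simulated data. The members, lists and tests were chosen with earlier results of these data known. Named genes were the 6 members, the 3 most alike to each over 18 libraries (log2 CPM, prior count 2, mean at least 1), up to 4 genes per list with the lowest p in the double KO against WT plus any called there, and the targeted genes. Other genes named (markers, overlapping transcripts) were named after their values were seen. Sequences are from RefSeq.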

Additional observations from a re-analysis of the deposited data

Results flagged for a closer look

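Of 24 groups of libraries examined (6 genes in 4 genotypes), 2 held a library far from the rest. Nfia stood at 205 CPM in Dmrt3 KO replicate 2, against 138 to 148 in the other 4 libraries of that genotype. Nfib stood at 344 CPM in the same library, against 221 to 251 in the others. Postmitotic neuron markers were also highest there, at 6825 CPM against 3972 to 6121 in the other Dmrt3 KO libraries, and mesenchyme markers lowest, at 787 CPM. Their part in these values was not tested. Chance flags about 1 in 20 groups, and these 2 are not independent, since Nfia and Nfib had an r of 0.99 within genotypes.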

How the results depend on the processing

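Of 720 values of single genes under alternatives, 670 kept their direction and their side of the threshold, 17 lost a call, 18 gained one and 15 changed sign, all of these in differences that were not called. The calls of Nfia, Nfib and Nfix in the double KO against WT and against Dmrt3 KO held under every alternative. In Dmrt5 KO against WT, 2 genes were called, 0 with only the genotypes compared in the fit and 1 to 3 with one library left out; Nfix was called each time a library was left out. In the double KO against WT, 3 were called, 5 with the gene length slope as covariate and 3 to 5 with one library left out. In Dmrt5 KO against Dmrt3 KO, 0 were called, 2 with DESeq2, 3 with only the genotypes compared and 1 with the length slope.

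The changes of sign were near 0. Zbtb20 in Dmrt5 KO against WT was -0.00 without the filter on low counts, -0.05 with the replicate block and -0.15 with the mesenchyme score. With one library left out it was -0.18 to 0.20, and -0.18 was reached without WT replicate 2. Nfic in the double KO against Dmrt5 KO was 0.16 with the mesenchyme score and -0.20 to 0.12 with one library left out. The interaction was -0.10 for Nfic and -0.11 for Nfix with the length slope. With one library left out it was -0.15 to 0.40 for Nfix, -0.32 to 0.01 for Nfia and -0.38 to 0.05 for Nfib. The values 0.01 and 0.05 were reached without WT replicate 2. The cause was not tested.

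The replicate numbers were not taken to pair the libraries, since not every same-number pair had a correlation of deviations over 0.1: 15 of 24 did (median 0.23, range -0.36 to 0.7), and 9 correlated best with their own number. With the replicate block, Nfia in Dmrt5 KO (adjusted p 0.0453) and Nfic in the double KO (log2 -0.62, adjusted p 0.0217) gained a call against WT, and Prox1 against Dmrt3 KO lost its call (log2 1.31, adjusted p 0.0671). Prox1 against Dmrt3 KO also lost it with only the genotypes compared (adjusted p 0.0956) and the length slope (0.0531), and gained one against WT with DESeq2 (0.0328) and the length slope (0.0338). Over all genes, the alternatives other than leaving out one library called 2 to 89 in Dmrt3 KO against WT (2 reported), 89 to 544 in Dmrt5 KO (167) and 368 to 3170 in the double KO (1012), where 89 and 368 came from a fit to only the genotypes compared. They called 311 to 955 in the double KO against Dmrt3 KO (600), 21 to 121 against Dmrt5 KO (54), 20 to 127 in the interaction (23) and 30 to 140 in Dmrt5 KO against Dmrt3 KO (37). With one library left out, the counts were 2 to 6, 54 to 225 and 727 to 2006 for the 3 comparisons against WT, 396 to 1437 and 34 to 79 for the double KO against Dmrt3 KO and Dmrt5 KO, 15 to 33 for the interaction and 12 to 37 for the single KO genotypes; 2006 and 1437 were reached without double KO replicate 4. A fit to only the genotypes compared could not be made for the interaction, which uses all 4. With 4 or 5 libraries a genotype, the wide spread of Zbtb20 and Prox1 in the double KO limits what can be called.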
